A study of Homo sapiens with 46 samples.

Results

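The comparison described here is that of 96 h of auxin with 0 h in LB2-AID, a derivative of the established human colorectal cancer line DLD-1 in which endogenous Lamin B2 carries an auxin inducible degron at its N-terminus. Its libraries were chosen by their labels: 4 libraries at 0 h (replicates 1 to 4) and 3 at 96 h (replicates 1 to 3), which are 7 of the 46 libraries of the series. 2 other lines are set beside it. Untagged parental DLD-1 cells received the same auxin for 0 or 96 h (4 libraries each), to find genes that respond to auxin itself, and LB1-AID cells carry the degron on Lamin B1 (3 libraries at 0 h and 4 at 96 h). Values of LB2-AID cells after 16 h of auxin (4 libraries, of which replicate 3 held only 479446 counts) are also given. Auxin was given at 1 mM from a stock in DMSO, cells grew in DMEM with fetal bovine serum, and a replicate was 1 well of a plate. The labels name no vehicle at 0 h, no clone and no receptor transgene for the degron, and nothing says that the wells came from separate cultures, so p-values measure the spread between wells.

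Lamins are intermediate filament proteins that form a meshwork under the inner nuclear membrane. The B-type lamins, B1 and B2, are made in nearly all cells and stay attached to the membrane by a lipid anchor, whereas the A-type lamins A and C come from LMNA and are also found in the nuclear interior. The degron is recognised by a ubiquitin ligase in the presence of the plant hormone auxin, so the protein is destroyed and its mRNA is not the target. RNA levels therefore do not check the degradation, and protein levels were not analysed here.

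The 7 libraries differed in depth and in 1 case in composition. Totals were 1894447, 16508928, 10167202 and 3724709 counts in replicates 1 to 4 at 0 h and 8649769, 13586531 and 17989328 counts in replicates 1 to 3 at 96 h, and the upper limit behind a zero (3 counts) corresponded to between 0.167 and 1.58 CPM (counts scaled to a library of 1000000). Such limits cover counting error only. Replicate 1 at 0 h stood apart: Spearman's rho of log CPM with the other 0 h libraries was 0.863 to 0.865, against 0.981 to 0.989 among those 3. In that library genes rich in GC were high (Spearman's rho of 0.64 between a gene's GC content and its deviation from the mean library), and the other 6 libraries lay between -0.44 and 0.08. In 2 genes that separate the LB2 line from the parental line it was like the other LB2 libraries: it had no count for ZNF714, which was at most 0.319 CPM in the other 6 and at least 36.3 CPM in every parental library, and LINC02408 was at 9.42 CPM, against at most 0.483 CPM in the parental line. Values with and without it are given below. All 12 markers of colon epithelium passed the low-count filter and their sum was 6776 to 11720 CPM across the 7 libraries. The summed markers of fibroblasts were 7.75 to 10.9 CPM at 0 h and 10.9 to 13.4 at 96 h, with COL1A2, DCN, LUM and PDGFRA at 0 in all 7 libraries, those of immune cells 1.77 to 2.53 and 3.23 to 3.96 CPM with CD3D at 0, and those of endothelium 26.1 to 59.8 and 26.6 to 34.9 CPM with KDR at 0.

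**Figure D1:**
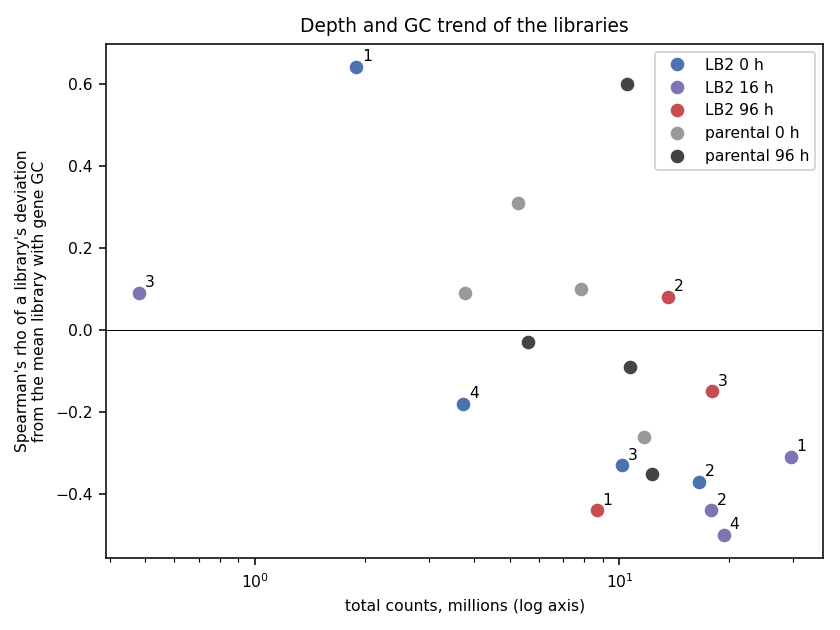
Total counts of each library (log axis) against Spearman's rho between a gene's GC content and its deviation from the mean library, for the LB2 and parental libraries, with LB2 replicates numbered. LB2 0 h replicate 1 is at 0.64, while the other LB2 libraries at 0 and 96 h lie between -0.44 and 0.08.

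The mRNAs of the 3 lamin genes gave no call at 96 h in the main fit, and each depended on replicate 1 at 0 h. LMNB2, the gene of the tagged protein, stood at 261.1, 108.8, 99.9 and 100.4 CPM at 0 h and 141.6, 198.1 and 177.0 CPM at 96 h. The 96 h libraries were all above the last 3 of the 0 h libraries and below the first. The log2 fold change was 0.31 ± 0.22 (SE) with an edgeR adjusted p of 0.551, and 0.75 with an edgeR adjusted p of 0.0139 without replicate 1 at 0 h. LMNB1 stood at 225.1, 126.8, 104.9 and 108.0 CPM at 0 h and 160.8, 166.0 and 170.1 CPM at 96 h, a log2 fold change of 0.26 (edgeR adjusted p 0.456) that became 0.56 (edgeR adjusted p 0.00802) without that library. LMNA stood at 1547, 512, 494 and 485 CPM at 0 h and 339, 475 and 428 CPM at 96 h. Its groups did not overlap, but its log2 fold change of -0.87 (edgeR adjusted p 0.0758) was -0.26 (edgeR adjusted p 0.663) without replicate 1. None of the 9 genes of lamins and lamin processing was called with all libraries. In the parental line LMNB2 had a log2 fold change of 0.55 (edgeR adjusted p 0.09), and the difference between the responses of the 2 lines was -0.24 (edgeR adjusted p 0.779).

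After 96 h, genes of the actin cytoskeleton, YAP targets and amino acid stress genes were among those lower, and genes of the intestinal epithelium, the clock and the immediate early response were among those higher. In all, 762 of 21484 genes tested were called at an edgeR adjusted p under 0.05 (3.55%), 419 higher (1.95%) and 343 lower (1.6%). Of these, 116 were at least 2-fold higher (0.54%) and 94 at least 2-fold lower (0.438%). The list counts below are to be read against the 1.95% higher and 1.6% lower of all genes. Among protein-coding genes these shares were 2.76% and 2.18%. In the parental line 3.94% of genes tested were higher and 3.84% lower at 96 h, and in LB1 1.05% and 2.12%. The CPM of the 4 and 3 libraries did not overlap for 2890 genes (13.5%), and 685 of those were also called (3.19%). Without replicate 1 at 0 h, 820 genes were called, 567 of the 762 were among them, and none of the 762 changed sign. The count was 486, 430 and 336 without LB2 96 h replicates 1, 2 and 3. The spread was taken from all 46 libraries, and a fit to these 7 alone called 54 genes, all among the 762. With library size in place of TMM scaling 72.3% of calls were higher, against 55.0%. Because RNA was taken from whole wells, fewer cells of a kind and less RNA per cell cannot be told apart.

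**Figure D2:**
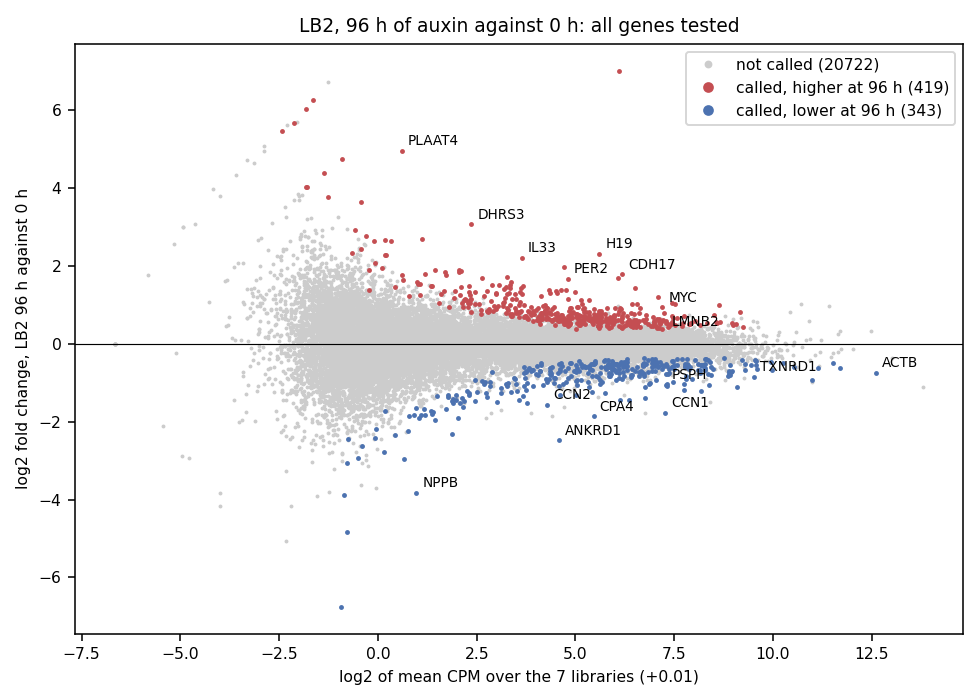
Log2 fold change of LB2 at 96 h against 0 h for each of the 21484 genes tested, against the log2 of its mean CPM over the 7 libraries. Red points are the 419 genes called higher and blue points the 343 called lower. ACTB is the most abundant gene labelled, and LMNB2 is not called.

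Of 19 tested targets of YAP 6 were called lower and none higher, where 1.6% of all genes were called lower. Of the 19, 16 had negative and 3 positive fold changes. YAP is a transcriptional coactivator that works with TEAD factors at GGAATG elements and is known to respond to cell tension and density. The median log2 fold change of the 19 was -0.47, against 0.0 over all genes tested, and without replicate 1 at 0 h the count was again 6 and the median -0.35. In the parental line 5 of the 19 were lower and none higher (median -0.32). In LB1 11 were lower and none higher (median -0.63). RefSeq promoter sequence (GRCh38.p14, 250 bases before to 50 after the annotated start) was held for CCN2 and ANKRD1. They are shown because both are among the called targets and carry the TEAD element, in capitals (GGAATG or its complement, both strands searched). CCN2 lies on the minus strand with its promoter at chr6:131951323-131951622, and its elements begin 169, 104 and 95 bases before the start. ANKRD1 lies on the minus strand with its promoter at chr10:90921038-90921337, and its elements begin 220 and 128 bases before the start. Of 35116 promoters in that table, 4928 (14%) hold the element, so a match describes the sequence only.
CCN2: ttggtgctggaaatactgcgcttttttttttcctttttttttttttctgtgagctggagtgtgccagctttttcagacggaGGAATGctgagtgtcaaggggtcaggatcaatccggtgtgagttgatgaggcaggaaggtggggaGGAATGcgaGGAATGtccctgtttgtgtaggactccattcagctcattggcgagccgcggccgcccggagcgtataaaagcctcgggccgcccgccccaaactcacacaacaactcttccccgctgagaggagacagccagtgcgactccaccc
ANKRD1: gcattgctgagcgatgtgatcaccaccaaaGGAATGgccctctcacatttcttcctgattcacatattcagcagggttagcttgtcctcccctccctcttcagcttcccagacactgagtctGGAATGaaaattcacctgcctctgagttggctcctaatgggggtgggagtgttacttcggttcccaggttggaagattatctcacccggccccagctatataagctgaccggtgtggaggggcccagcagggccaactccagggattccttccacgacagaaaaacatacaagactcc

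Of these targets, CCN1, which encodes a secreted matricellular protein, stood at 253, 249, 183 and 203 CPM at 0 h and at 47.8, 74.9 and 69.9 CPM at 96 h. Every 96 h library was less than every 0 h library. The log2 fold change was -1.78 ± 0.18 (SE, edgeR adjusted p 2.75e-09). CCN2, its close relative, stood at 26.1, 31.1, 29.8 and 21.6 CPM at 0 h and 6.7, 10.8 and 9.94 CPM at 96 h, a log2 fold change of -1.58 ± 0.19 (SE, edgeR adjusted p 2.19e-07). ANKRD1, a muscle ankyrin repeat protein, stood at 30.5, 33.4, 36.2 and 48.9 CPM at 0 h and 7.22, 7.09 and 5.85 CPM at 96 h, and fell by 2.48 ± 0.21 on the log2 scale (SE, edgeR adjusted p 1.95e-11). In each of these genes the 0 h and 96 h ranges were well apart. ARHGEF17, a guanine nucleotide exchange factor, fell by 0.86 (log2, edgeR adjusted p 0.00187). The other two called members, AJUBA and AMOTL2, which regulate Hippo signalling and were named after their values were seen, had log2 fold changes of -1.02 and -0.68. CCN1, CCN2 and ANKRD1 were also called in the fit to the 7 libraries alone.

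**Figure D3:**
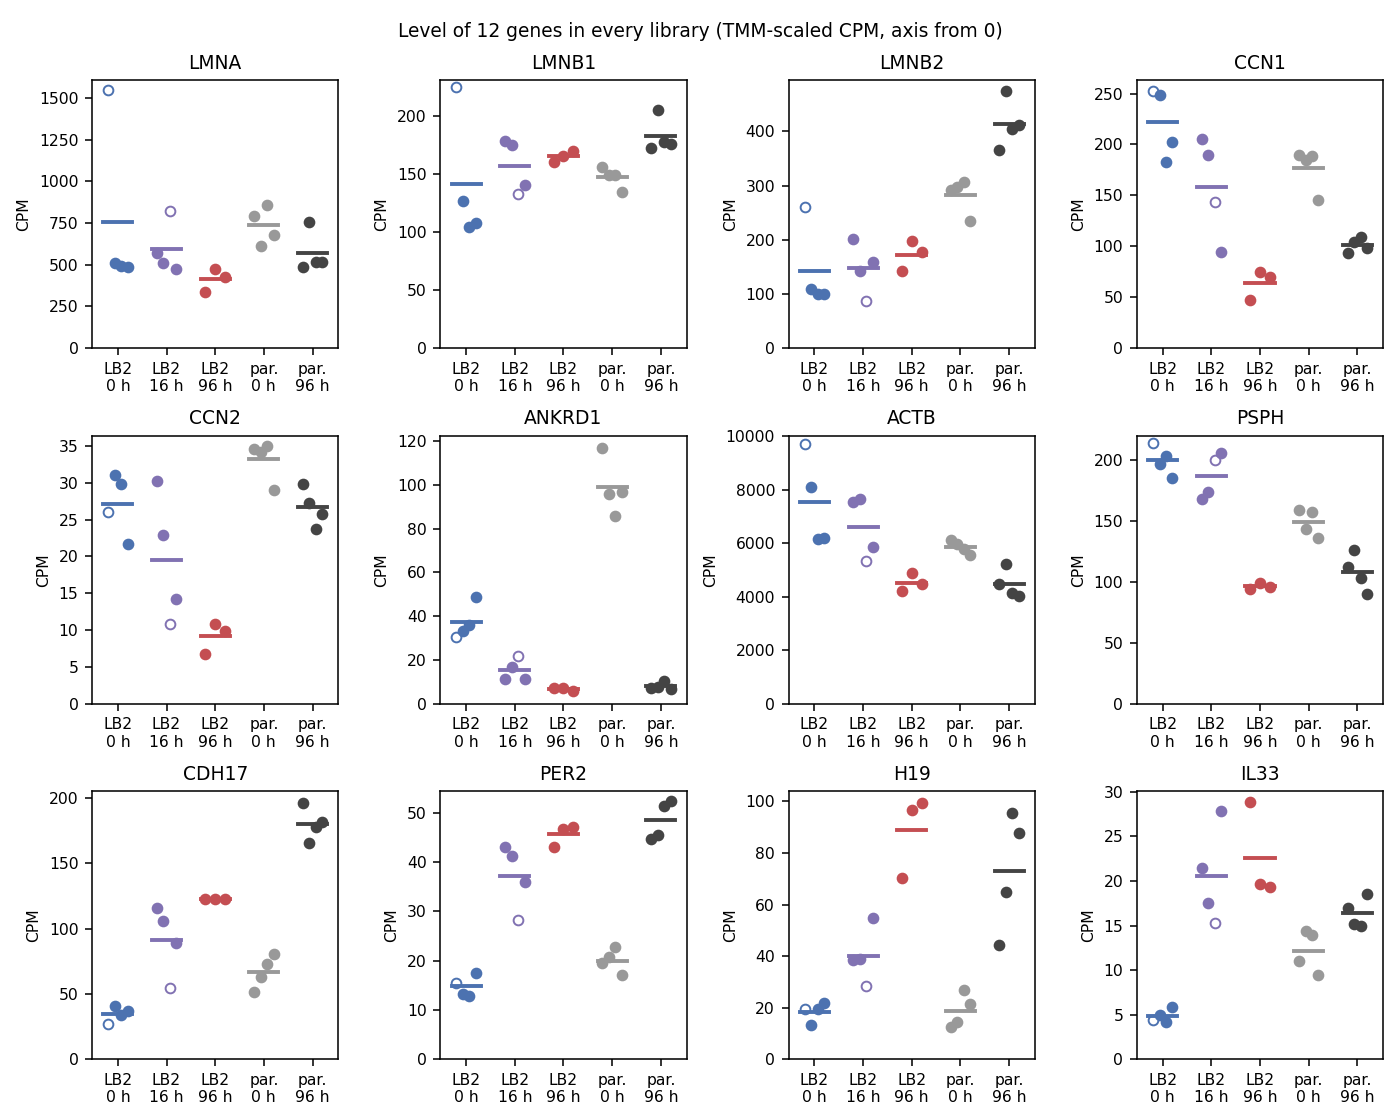
TMM-scaled CPM (axis from 0) of 12 genes in every library of LB2 at 0, 16 and 96 h and of the parental line (par.) at 0 and 96 h. Bars are group means and each point is 1 library, open for LB2 0 h replicate 1 and LB2 16 h replicate 3, the shallowest library. CCN1, CCN2 and ANKRD1 at LB2 96 h lie below all LB2 0 h libraries, and CDH17, PER2, H19 and IL33 lie above them.

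Genes of actin and of the targets of SRF, a factor whose cofactors sense free actin, had a median log2 fold change of -0.27. Of 20 tested members 4 were lower and none higher, where 1.6% of all genes were lower. ACTB, cytoplasmic beta-actin and the most abundant gene among those that fell, stood at 9735, 8111, 6176 and 6193 CPM at 0 h and 4200, 4876 and 4461 CPM at 96 h. ACTG1, cytoplasmic gamma-actin, stood at 4506, 4161, 3276 and 3628 CPM at 0 h and 2480, 2733 and 2440 CPM at 96 h. The log2 fold changes were -0.74 ± 0.14 and -0.61 ± 0.12 (SE, edgeR adjusted p 0.000612 and 0.000564), and without replicate 1 at 0 h they were -0.59 and -0.52 (edgeR adjusted p 0.00842 and 0.00513). CALD1, caldesmon, an actin-binding regulator of contraction, fell by 1.50 (log2, edgeR adjusted p 2.4e-05), from 9.43, 15.6, 9.57 and 9.68 CPM to 4.4, 4.04 and 3.88 CPM. FHL2, a LIM domain protein, was also called, at -0.38 with an edgeR adjusted p of 0.0486, and kept it in 1 of 7 fits that each left out 1 library. Reads of ACTB and ACTG1 can be shared with each other and with their pseudogenes. In the parental line 2 of the 20 genes of this list were lower and 1 higher (median -0.23). In LB1 6 were lower and none higher (median -0.36).

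Of 31 tested genes of amino acid stress 7 were called lower and none higher, where 1.6% of all genes were lower. Their median log2 fold change was -0.44. ATF4 is the transcription factor of the integrated stress response, and its targets make serine, import amino acids and charge transfer RNAs. PSPH, the last enzyme of serine synthesis, stood at 214, 197, 204 and 185 CPM at 0 h and 94.4, 99.6 and 95.6 CPM at 96 h, a log2 fold change of -1.05 ± 0.13 (SE, edgeR adjusted p 2.05e-07). SARS1, which charges the serine transfer RNA, fell by 0.60 (edgeR adjusted p 0.000138). CHAC1, a glutathione-degrading enzyme, fell by 0.60 (edgeR adjusted p 0.00792). ATF4 fell by 0.47 (edgeR adjusted p 0.0101) and lost its call without LB2 96 h replicate 2 or 3 (edgeR adjusted p up to 0.0781). Each of these 4 genes had 96 h libraries below all 0 h libraries. CHAC1 lost its call without LB2 96 h replicate 3 (edgeR adjusted p 0.0762). Of the 31 genes 12 were lower and none higher in the parental line (median -0.38). In LB1 19 were lower and none higher (median -0.74). The promoter of CHAC1, on the plus strand at chr15:40953221-40953520 (RefSeq, GRCh38.p14), is shown for its match to TGATGNAA, the core of the element bound by ATF4 with a partner. The match begins 209 bases before the start, on the minus strand, and 1270 of 35116 promoters hold the element (3.62%). The held promoters of SARS1 and ATF4 do not, and no promoter of PSPH was held.
CHAC1: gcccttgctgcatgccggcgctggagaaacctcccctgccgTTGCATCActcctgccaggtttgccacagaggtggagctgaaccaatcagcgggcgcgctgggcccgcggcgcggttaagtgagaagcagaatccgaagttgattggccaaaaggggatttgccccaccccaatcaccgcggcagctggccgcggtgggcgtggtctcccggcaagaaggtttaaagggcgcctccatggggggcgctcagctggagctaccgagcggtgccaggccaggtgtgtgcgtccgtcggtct

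In cholesterol synthesis 4 of 24 tested genes were lower and none higher, where 1.6% of all genes were lower. The median log2 fold change was -0.37, and 23 of the 24 had a negative fold change. MSMO1 and HSD17B7, enzymes of the late pathway, had log2 fold changes of -0.58 and -0.56 (edgeR adjusted p 0.0486 and 0.0155), and each kept its call in 1 of 7 fits that left out 1 library. EBP, a sterol isomerase, lost its call without replicate 1 at 0 h (-0.83 with an edgeR adjusted p of 0.0269, and -0.49 with 0.187). In the parental line 6 of the 24 were lower and none higher (median -0.32), and in LB1 4 were lower and none higher (median -0.35). Among 28 genes of hypoxia and glycolysis 3 were lower and none higher in the parental line, and the counts in LB2 were the same. SLC2A3, the glucose transporter GLUT3, stood at 126, 120, 103 and 99.9 CPM at 0 h and 34.8, 47.2 and 40.8 CPM at 96 h, and fell by 1.45 (log2, edgeR adjusted p 7.22e-07). PGK1, phosphoglycerate kinase, fell by 0.52 (edgeR adjusted p 0.00384, and 0.0509 without LB2 96 h replicate 3), and TXNRD1, the thioredoxin reductase that is a classical NRF2 target, by 0.85 (edgeR adjusted p 1.69e-06), from 850 to 1012 CPM at 0 h to 472 to 531 CPM at 96 h.

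Of the 18 tested genes of absorptive intestinal cells 4 rose and none fell, 12 had positive and 6 negative fold changes, and the median log2 fold change was 0.51. Of the 14 tested secretory genes 4 rose and none fell, 13 had positive fold changes, and the median was 0.85. Of the 12 colon epithelium markers 2 rose, with 7 positive and 5 negative fold changes. Of all genes 1.95% were higher. In the parental line 4 absorptive and 4 secretory genes were higher and none lower (medians 0.07 and 0.77). In LB1 5 absorptive genes were higher and 1 lower (median 0.69), and 4 secretory genes were higher and none lower (median 0.81). In LB2 CDH17, the liver-intestine cadherin, stood at 27.2, 41.1, 34.1 and 37.2 CPM at 0 h and 122.7, 122.4 and 123.0 CPM at 96 h. The 3 libraries at 96 h were nearly equal and all above those at 0 h, a log2 fold change of 1.78 ± 0.16 (SE, edgeR adjusted p 1.36e-10). CDX2, the intestinal homeodomain factor, rose by 0.77 (edgeR adjusted p 0.000339) and KRT20, a keratin of differentiated colon cells, by 0.70 (edgeR adjusted p 0.00498). CEACAM5 rose from at most 0.247 CPM to between 0.992 and 1.81 CPM (edgeR adjusted p 0.00931), on too few counts for a fold. In the secretory genes, MUC20, a membrane mucin, stood at 4.99, 4.64, 6.9 and 5.6 CPM at 0 h and 12.4, 19.7 and 18.5 CPM at 96 h, and was called higher (edgeR adjusted p 9.84e-06). TFF1, a trefoil peptide of mucus, rose by 1.32 (edgeR adjusted p 0.00889) and kept its call in 4 of 7 fits that each left out 1 library. Of 16 tested genes of retinoid metabolism and its receptors 5 rose in the parental line, 3 in LB1 and 2 in LB2. DHRS3, a retinal reductase, rose from 3.33, 1.24, 0.368 and 1.53 CPM to 10.9, 9.78 and 8.82 CPM, a log2 fold change of 3.07 ± 0.43 (SE, edgeR adjusted p 4.31e-06). RDH10, a retinol dehydrogenase, rose by 0.80 (edgeR adjusted p 2.17e-05).

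The clock, the immediate early genes and WNT feedback genes had members that rose. In the circadian clock 4 of 18 tested genes were higher and none lower, where 1.95% of all genes were higher. Their median log2 fold change was 0.18. PER2, a repressor of the clock, stood at 15.5, 13.2, 12.9 and 17.6 CPM at 0 h and 43.0, 46.7 and 47.1 CPM at 96 h, a log2 fold change of 1.66 ± 0.15 (SE, edgeR adjusted p 5.22e-11). BHLHE40, another repressor, stood at 29.9, 23.2, 21.5 and 20.4 CPM at 0 h and 48.0, 54.9 and 48.2 CPM at 96 h (log2 fold change 1.12, edgeR adjusted p 0.000117). CRY2, the partner of the PER proteins, rose by 0.77 (edgeR adjusted p 0.00111), and the ranges of these 3 genes did not overlap. In the parental line 3 of the 18 clock genes were higher and none lower, and in LB1 2 were higher and 3 lower. The promoter of BHLHE40, on the plus strand at chr3:4979187-4979486 (RefSeq, GRCh38.p14), is shown with its E-box (CACGTG, the element of the clock activators), 245 bases before the start, in capitals. Of 35116 promoters 2548 (7.26%) hold it, and the held promoters of PER2, CRY2 and HLF do not.
BHLHE40: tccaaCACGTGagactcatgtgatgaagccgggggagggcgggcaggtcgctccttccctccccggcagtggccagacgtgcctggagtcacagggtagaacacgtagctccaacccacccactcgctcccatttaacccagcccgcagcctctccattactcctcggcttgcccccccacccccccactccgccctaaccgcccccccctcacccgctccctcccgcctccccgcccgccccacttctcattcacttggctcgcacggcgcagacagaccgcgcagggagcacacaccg

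Among 23 immediate early genes, which respond within minutes to growth signals, 6 were higher and 2 lower. Of all genes 1.95% were higher and 1.6% lower. MYC stood at 99.2, 116, 102 and 106 CPM at 0 h and 186, 198 and 225 CPM at 96 h, a log2 fold change of 0.94 ± 0.13 (SE, edgeR adjusted p 1.93e-06). EGR1, a zinc finger factor, rose by 1.06 (edgeR adjusted p 6.87e-05) and NR4A3, an orphan nuclear receptor, by 1.86 (edgeR adjusted p 0.000122). ATF3, a stress-induced factor, went the other way, from 32.2, 38.3, 32.1 and 35.9 CPM to 15.6, 19.3 and 18.0 CPM (log2 fold change -0.98, edgeR adjusted p 1.64e-05), and KLF6 fell by 0.54 (edgeR adjusted p 0.00261). In the parental line 8 of the 23 were higher and 1 lower, and in LB1 5 were higher and 3 lower. Of 18 WNT feedback genes 4 were higher in the parental line, 1 in LB1 and 3 in LB2, and none was lower. In LB2 EPHB2, a receptor of intestinal crypts, rose by 1.32 (edgeR adjusted p 3.23e-05) and LEF1, a partner of beta-catenin, by 0.76 (edgeR adjusted p 0.00034). AXIN2, the standard feedback gene of that pathway, had a log2 fold change of -0.19 (edgeR adjusted p 0.598). Of 12 targets of the aryl hydrocarbon receptor 3 were higher and none lower in the parental line, and 2 were higher and 4 lower in LB1. In LB2 3 were higher and none lower, among them CYP1B1, a xenobiotic-metabolising enzyme. It stood at 38.8, 36.4, 35.0 and 33.1 CPM at 0 h and 61.0, 56.6 and 58.1 CPM at 96 h (log2 fold change 0.71, edgeR adjusted p 0.00143).

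Interferon-stimulated genes had members that rose, while the cytokine genes IL33 and IL18 went in opposite directions. Of 35 tested interferon-stimulated genes 2 were higher and 1 lower in the parental line, and 1 was higher and 1 lower in LB1. In LB2 6 were higher and none lower, where 1.95% of all genes were higher, and the median log2 fold change was 0.24. For none of them was the difference from the parental response called. MX2, an antiviral GTPase, stood at 3.33, 6.18, 8.0 and 4.33 CPM at 0 h and 9.84, 12.1 and 11.6 CPM at 96 h (log2 fold change 0.90, edgeR adjusted p 0.00754), and CMPK2 rose by 1.46 (edgeR adjusted p 0.00523). RSAD2 was at most 0.186 CPM at 0 h and 0.992 to 2.62 CPM at 96 h. No interferon-stimulated gene was called in the fit to the 7 libraries alone, where 1938 genes had an unadjusted p under 0.05. ISG15, a ubiquitin-like protein that is a standard readout of interferon, had a log2 fold change of -0.97 (edgeR adjusted p 0.14). IL18, an epithelial cytokine of the interleukin-1 family, stood at 123, 171, 149 and 148 CPM at 0 h and 82.6, 71.0 and 65.3 CPM at 96 h, and fell by 1.03 (edgeR adjusted p 5.41e-06). IL33, another member of that family, stood at 4.44, 4.95, 4.23 and 5.86 CPM at 0 h and 28.8, 19.7 and 19.4 CPM at 96 h, and rose by 2.22 ± 0.29 (SE, edgeR adjusted p 1.29e-06).

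Genes of the nuclear envelope and of chromosomes were called in both directions, to be read against the 3.55% of all genes and 4.94% of protein-coding genes called. Among 24 partners of lamins in the inner nuclear membrane and the LINC complex 2 were lower: SYNE1, the nesprin that links the envelope to actin, fell by 0.99 (edgeR adjusted p 0.0126, and up to 0.116 without 0 h replicate 4 or 96 h replicate 1), and SUN2, its partner in the inner membrane, had a log2 fold change of -0.83 (edgeR adjusted p 0.0269) that was -0.46 (edgeR adjusted p 0.205) without replicate 1 at 0 h. Among 31 nuclear pore genes 2 were higher and 1 lower, and among 26 heterochromatin genes 1 was higher. RANBP2, the filament protein of the cytoplasmic face of the pore, rose by 0.56 (edgeR adjusted p 0.00776, and 0.0761 without LB2 96 h replicate 3). Among 39 mitotic genes 1 was higher and 3 lower: MKI67, a proliferation marker that coats mitotic chromosomes, stood at 292, 268, 278 and 284 CPM at 0 h and 407, 463 and 546 CPM at 96 h (log2 fold change 0.75, edgeR adjusted p 0.00142), while CCNB1, the mitotic cyclin, had a log2 fold change of -0.54 (edgeR adjusted p 0.0132, and up to 0.0963 with 1 library left out). Its 0 h and 96 h libraries overlapped through replicate 1 at 0 h. Of 42 replication-dependent histone genes 3 were lower, and of 78 ribosomal protein genes 3. RPLP0, a ribosomal stalk protein, stood at 2313, 3024, 2577 and 2657 CPM at 0 h and 1738, 1713 and 1680 CPM at 96 h (log2 fold change -0.63, edgeR adjusted p 0.00121). All 13 protein-coding transcripts of the mitochondrial genome had positive fold changes with a median of 0.59, and none was called. Their share of all counts was 0.761% to 2.85% at 0 h and 1.75% to 2.86% at 96 h. In the parental line 2 of the 24 partners were higher and 2 lower, and 2 mitotic genes were lower. Of pore, heterochromatin, histone and ribosomal protein genes 2 each were higher there and none lower. In LB1 3 partners and 5 mitotic genes were lower and 1 ribosomal protein gene was higher. No pore, heterochromatin or histone gene was called in LB1. The mitochondrial median was 0.45 in the parental line with none called, and 0.83 in LB1 with 1 higher.

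**Figure D4:**
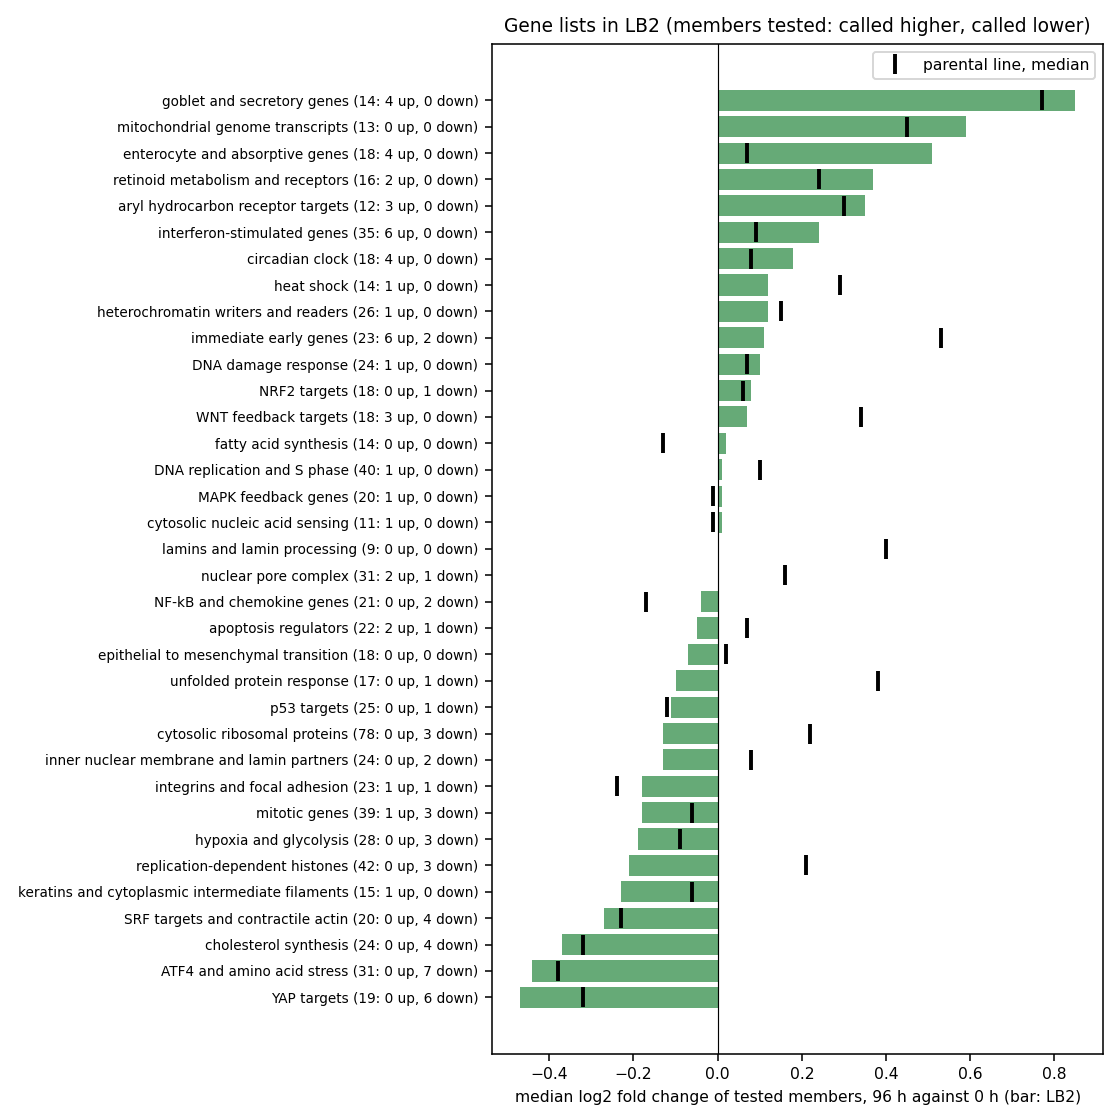
Median log2 fold change of the tested members of 35 gene lists at 96 h against 0 h, as bars for LB2 and black ticks for the parental line, with the number of members tested and called higher (up) or lower (down) in LB2. YAP targets have the lowest LB2 median, at -0.47, and the secretory genes the highest, at 0.85.

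Among single genes of at least 1 CPM whose libraries did not overlap, the 10 with the greatest rise were PLAAT4, DHRS3, PTCHD1, PSCA, SH3PXD2A-AS1, H19, SMAD6, CYP4F11, IL33 and PARM1. All but CYP4F11 kept the call in each of 7 fits that left out 1 library, and CYP4F11 kept it in 3 (edgeR adjusted p 0.0325, and up to 0.129). H19, an imprinted noncoding RNA, stood at 19.4, 13.2, 19.5 and 21.9 CPM at 0 h and 70.5, 96.7 and 99.5 CPM at 96 h, a log2 fold change of 2.30 ± 0.29 (SE, edgeR adjusted p 7.22e-07). PARM1, a mucin-like membrane protein, stood at 9.43, 13.5, 9.02 and 14.0 CPM at 0 h and 43.1, 45.8 and 47.9 CPM at 96 h (log2 fold change 1.97 ± 0.19, SE, edgeR adjusted p 8.77e-10). Both were at least 3-fold higher in every comparison of a 96 h with a 0 h library. PLAAT4, also called retinoic acid receptor responder 3, was at most 0.554 CPM at 0 h and 5.24, 2.13 and 2.5 CPM at 96 h. The 10 with the greatest fall were NPPB, MIR320A, HAPLN3, ANKRD1, ANO2, MYL11, RNVU1-3, CAMK1G, CPA4 and ZNF236-DT. NPPB, ANKRD1, ANO2 and CPA4 kept the call in 7 of 7 such fits, MIR320A and RNVU1-3 in 6, ZNF236-DT in 5, HAPLN3 in 4, MYL11 in 3 and CAMK1G in 2. CPA4, a secreted carboxypeptidase, stood at 69.3, 76.0, 59.1 and 51.7 CPM at 0 h and 14.2, 19.1 and 19.1 CPM at 96 h (log2 fold change -1.87 ± 0.24, SE, edgeR adjusted p 8.62e-07). NPPB, the natriuretic peptide B gene, stood at 5.54, 1.86, 2.67 and 3.06 CPM at 0 h and at 0, 0.284 and 0.266 CPM at 96 h (edgeR adjusted p 0.00088). MYL11, a myosin light chain, lost its call without replicate 1 at 0 h (edgeR adjusted p 0.0274 with it and 0.0512 without). Of the most abundant genes that rose, HNRNPU, which binds nuclear RNA and chromatin, stood at 502, 440, 423 and 459 CPM at 0 h and 576, 676 and 685 CPM at 96 h (log2 fold change 0.50, edgeR adjusted p 0.00889).

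In the parental line given auxin 1671 genes were called at 96 h (7.78%), and of the 419 higher genes of LB2 189 were also called higher there (45.1% of the LB2 list, 22.3% of the 847 of the parental line, which are 3.94% of genes tested) and 3 were called lower. Of the 343 lower genes 104 were also called lower (30.3%, and 12.6% of 824, which are 3.84% of genes tested) and 1 was called higher. The sign was the same for 91.2% of the higher and 83.4% of the lower genes. The median log2 fold change in the parental line was 0.43 and -0.32 over the same 419 and 343 genes, against 0.75 and -0.71 in LB2, where they were chosen for their size. The 2 lines share no library. CDH17 rose by 1.43 in the parental line, PER2 by 1.27, H19 by 1.99 and DHRS3 by 2.92, and the difference of the responses was not called for any of the 4 genes.

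The difference of the 2 responses, tested directly, was called for 79 genes (0.368%), 58 higher (0.27%) and 21 lower (0.0977%). The count was 2 without LB2 0 h replicate 2 or parental 96 h replicate 2, 6 without LB2 96 h replicate 1, and 18 to 48 without any 1 of LB2 96 h replicates 2 and 3, LB2 0 h replicates 1 (38 genes) and 4, parental 96 h replicate 3 and the 4 parental 0 h libraries. In parental 96 h replicate 2 genes rich in GC were high (Spearman's rho of 0.60), and the other parental 96 h libraries lay between -0.35 and -0.03. The part of that in the difference was not tested. A fit to these 4 groups alone called 20 genes. Without libraries under 5000000 counts, 59 were higher and 69 lower. In the YAP list, 1 gene differed upwards and 2 downwards. Parental CCN2 went from 33.2 ± 2.81 to 26.7 ± 2.6 CPM (SD, n = 4 libraries per time), a log2 fold change of -0.32 that was not called, and the difference from LB2 was -1.26 ± 0.25 (SE, edgeR adjusted p 0.0179). CCN1 fell in both lines, by 0.81 in the parental line, and the difference was -0.98 (edgeR adjusted p 0.0494). ANKRD1 fell more in the parental line, by 3.66, so that the difference was 1.18 (edgeR adjusted p 0.041). At 96 h the parental level was 7.98 ± 1.62 CPM (SD, n = 4) and the LB2 level 6.72 ± 0.759 CPM (SD, n = 3), whereas at 0 h it had been 98.9 ± 13.0 and 37.2 ± 8.12 CPM (SD, n = 4 each), and each line's range at 96 h was below its own range at 0 h. With 1 library left out in turn, the difference in CCN2 was called in 12 of 15 fits, in ANKRD1 in 3 and in CCN1 in 1.

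**Figure D5:**
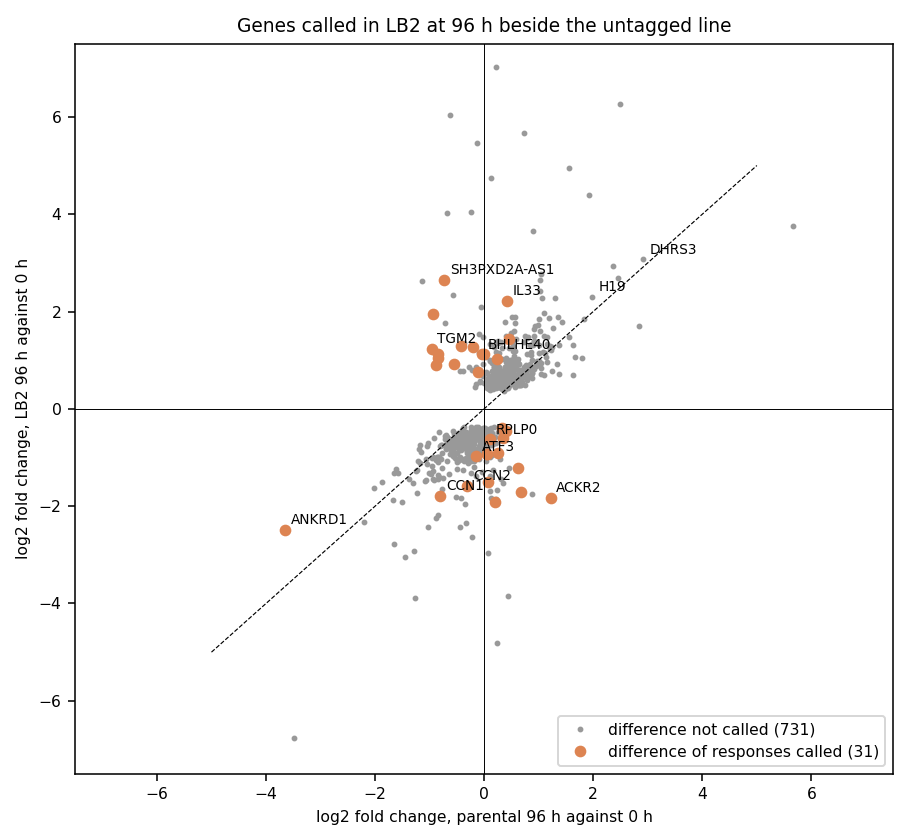
Log2 fold change at 96 h against 0 h in LB2 (vertical) against that in the parental line (horizontal) for the 762 genes called in LB2, with genes whose difference of responses was called in orange. The dashed line marks equal responses. ANKRD1 lies above that line and CCN2, CCN1 and RPLP0 below it.

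The difference was also called for genes outside the YAP list. IL33 rose by 2.22 in LB2 and changed by 0.42 in the parental line (edgeR adjusted p 0.325). Parental IL33 went from 12.2 ± 2.39 to 16.4 ± 1.69 CPM (SD, n = 4 libraries per time). The difference was 1.80 ± 0.39 (SE, edgeR adjusted p 0.025) and was called in 8 of 15 fits that each left out 1 library. TGM2, a protein-crosslinking transglutaminase, stood at 17.7, 9.71, 10.4 and 7.9 CPM at 0 h and 19.8, 29.9 and 26.1 CPM at 96 h in LB2, and fell by 0.96 in the parental line, so that the difference was 2.19 ± 0.42 (SE, edgeR adjusted p 0.0179), called in 13 of 15 such fits. BHLHE40 rose in LB2 and changed by -0.04 in the parental line, a difference of 1.16 (edgeR adjusted p 0.0266) called in 7 of 15 such fits. Among genes that went lower, RPLP0 differed by -0.73 (edgeR adjusted p 0.0378, called in 5 of 15 such fits) and its processed pseudogene RPLP0P6, with which it can share reads, by -1.15 (edgeR adjusted p 0.0242, called in 10). RNVU1-22, a variant U1 small nuclear RNA of which near-identical copies exist, stood at 18.3, 20.3, 18.7 and 18.3 CPM at 0 h and 11.5, 4.25 and 4.89 CPM at 96 h and differed by -1.57 (edgeR adjusted p 0.0261), called in 8 of 15 such fits.

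Against the LB1 line, the other B-type lamin, the difference of responses was called for 26 genes (0.121%), 19 higher (0.0884%) and 7 lower (0.0326%). The count was 14 without LB2 96 h replicate 2 or 3, 15 to 17 without LB1 96 h replicate 1 or LB1 0 h replicate 1 or 3, 40 without LB2 96 h replicate 1 or LB2 0 h replicate 2, and 74 without LB2 0 h replicate 1. A fit to these 4 groups alone called 8 genes. In LB1 682 genes were called at 96 h (3.17%). Of the 419 higher genes of LB2 83 were also called higher in LB1 (19.8%, and 36.7% of 226, which are 1.05% of genes tested), and of the 343 lower genes 110 were also called lower (32.1%, and 24.1% of 456, which are 2.12% of genes tested). CEMIP, which depolymerises hyaluronan, stood at 42.1, 37.4, 32.9 and 26.2 CPM at 0 h and 100.3, 114 and 120.5 CPM at 96 h in LB2, and at 403 ± 33.0 (SD, n = 3) and 459 ± 69.4 CPM (SD, n = 4) in LB1. It rose by 1.70 in LB2 and changed by 0.18 in LB1, a difference of 1.52 ± 0.24 (SE, edgeR adjusted p 0.000497) that was called in 14 of 14 fits that each left out 1 library. CADPS, a regulator of vesicle exocytosis, rose by 1.28 in LB2 and changed by -0.60 in LB1, a difference of 1.87 ± 0.32 (SE, edgeR adjusted p 0.00175) that was also called in 14 of 14 fits. PARM1 rose in both lines, by 1.97 and 0.63, a difference of 1.34 (edgeR adjusted p 0.00873) called in 13 of 14 fits. CCN1 fell by 1.56 and CCN2 by 1.24 in LB1, and neither difference from LB2 was called.

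The values at 16 h, which share the 0 h libraries, differed in order between genes, and 1.81% of genes tested were called at 16 h. IL33 was already 2.16 higher on the log2 scale at 16 h (edgeR adjusted p 2.41e-06) and 2.22 higher at 96 h, and PER2 was 1.44 and 1.66 higher. CCN2 was -0.34 at 16 h (edgeR adjusted p 0.31) and -1.58 at 96 h, and CPA4 had an edgeR adjusted p of 1.0 at 16 h and a log2 fold change of -1.87 at 96 h. CYP1A1, the standard target of the aryl hydrocarbon receptor, had log2 fold changes of 3.16 and 1.71. Without the shallowest library, replicate 3 at 16 h, the 16 h values of IL33, PER2 and CYP1A1 were again called and that of CCN2 was not (edgeR adjusted p 0.309).

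Called genes differed from the tested genes in type, genomic span and level. Of 13734 protein-coding genes tested 4.94% were called, against 0.791% of 2023 antisense genes and 1.6% of 1247 lincRNAs. The median genomic span was 62.1 kb in genes called higher and 16.6 kb in genes called lower, against 18.1 kb in all genes tested, and the median GC content was 47.6%, 51.5% and 48.0%. Among protein-coding genes alone the median spans were 67.9, 18.1 and 32.6 kb, so both sets differed from that background. The median level over the 7 libraries was 28.8 CPM in genes called higher and 57.4 CPM in genes called lower, against 5.93 CPM in all genes tested. In all protein-coding genes tested it was 28.3 CPM, and the part of level in the difference between gene types was not tested. The fold changes had a Spearman's rho of -0.20 with GC content across 9993 genes, which are not independent replicates. After offsets for GC content and length in every library it was 0.07, 1705 genes were called, and 704 of the 762 were among them. Beside the 1.95% higher and 1.6% lower of all genes, chromosome 19 had 6 higher and 27 lower of 1254 tested (0.478% and 2.15%). Chromosome 21 had 10 higher and 1 lower of 249 tested (4.02% and 0.402%). The shares called in either direction were 2.63% and 4.42%, against 3.55% of all genes. These chromosomes were chosen after the values of all chromosomes were seen.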

How the data were processed

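RNA-seq counts of 46 DLD-1 libraries were used, made from total RNA with ribosomal RNA depletion and read in pairs, per the labels' protocols. The authors deposited a single table of raw gene counts on GRCh38, made with featureCounts 1.6.4 in an nf-core/rnaseq 1.4.2 environment per the file headers, and the submitters' processing notes also name STAR 2.7.10a. The strand setting, the handling of multi-mapped reads and the annotation release are not given in the sources used here, so counts of overlapping, antisense and near-identical genes are uncertain. All columns were matched to libraries by name. A gene broken over 3 lines was left out, and 1 called gene is not reported here.

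Tests were two-sided quasi-likelihood F-tests in edgeR 4.0.16 (R 4.3.3) from 1 fit of 46 libraries with 12 group coefficients, TMM scaling and filterByExpr, with Benjamini-Hochberg adjustment over 21484 genes. The threshold for a call was an adjusted p of 0.05. CPM are TMM-scaled. The procedure was tested on simulated counts with independent noise. All groups had the same mean per gene, apart from chosen genes changed in LB2 at 96 h. The simulated counts held no differences between lines and no library with a GC trend, so that test does not cover these. Genes were named by rule: the lamins, the 10 greatest rises and falls and the 4 most abundant calls each way, the 6 and 3 greatest differences from the parental and LB1 responses each way (mean of at least 1 CPM over the 7 libraries, groups not overlapping), and at most 4 called members per list and direction. The comparison, the 35 lists and 4 marker lists were chosen with earlier results of these data known. Alternatives were other scalings, no filter, limma 3.58.1 voom, DESeq2 1.42.0, GC and length offsets, fewer libraries, a replicate block and leaving out each replicate.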

Additional observations from a re-analysis of the deposited data

Results flagged for a closer look

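The difference between the response of LB2 and that of the parental line, itself tested, was called for these genes among those named (log2 difference, edgeR adjusted p under 0.05): SH3PXD2A-AS1 at 3.39, TGM2 at 2.19, OGN at 1.98, ST3GAL3 at 1.90, IL33 at 1.80 and MAPK10 at 1.70 on the higher side, and ACKR2 at -3.05, RNVU1-25 at -2.39, RNU5B-1 at -1.85, RNVU1-22 at -1.57, CCN2 at -1.26 and RPLP0P6 at -1.15 on the lower side. SH3PXD2A-AS1 lies antisense to SH3PXD2A, and its reads cannot be told from that gene without strand. The greatest called differences from the LB1 response under that rule were CADPS at 1.87, CEMIP at 1.52, PARM1 at 1.34, SMIM3 at -0.91 and RPL9 at -0.89. ALDH3A1 at 1.15 and PER2 at 1.14 were also called. Most of these calls were lost in some fits that left out 1 library. Of 15 such fits TGM2 was called in 13, CCN2 in 12, RPLP0P6 in 10, IL33, ST3GAL3 and RNVU1-22 in 8 each, OGN in 5, ACKR2 in 4, SH3PXD2A-AS1 and RNU5B-1 in 3 each, and MAPK10 and RNVU1-25 in 2 each. Of the other named genes CADPS was called in 11, BHLHE40 in 7, RPLP0 in 5, ANKRD1 in 3, and ATF3 and CCN1 in 1 each. Of 14 fits against LB1, CADPS, CEMIP, ALDH3A1 and PER2 were called in 14, PARM1 in 13, and SMIM3 and RPL9 in 5 each.

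At 0 h, 1 library lay far from the other 3 in 12 of 117 named genes. In replicate 1 these were LMNA at 1547 CPM, LMNB2 at 261.1, EGR1 at 181.3, SUN2 at 125.9, EBP at 100.3, BAD at 65.97, ACKR2 at 7.762 and PLAAT4 at 0.5544 CPM. In other replicates they were CALD1 at 15.64 CPM and RNVU1-25 at 2.844 in replicate 2, RPLP0P6 at 12.51 in replicate 3 and SYNE1 at 12.74 in replicate 4. The PLAAT4 value is under the 1.58 CPM limit behind a zero in its library. The flag was set to mark about 1 in 20 by chance. That rate is only a guide here, because most of the named genes were chosen by their calls and all share the same libraries. Replicate 1 is also the library whose genes rich in GC are high, at a rho of 0.64, and the part of that in these values was not tested.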

How the results depend on the processing

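The 762 calls of LB2 at 96 h became 1705 with the GC and length trend removed, 1214 without libraries under 5000000 counts, 2690 with limma voom, 1265 with DESeq2, 54 in a fit to the compared groups alone, and 336 to 820 when each replicate was left out. The difference from the parental response (79 genes) became 169 with library size only, 164 without a filter, 414 with the trend removed, 128 without shallow libraries, 20 in the compared groups alone, 556 with voom, 216 with DESeq2 and 2 to 72 with 1 replicate left out. It was 2 without LB2 0 h replicate 2 and 2 without parental 96 h replicate 2. The difference from LB1 (26 genes) became 48 without a filter, 145, 81, 8, 517 and 81 in the same order of settings from the trend to DESeq2, and 14 to 74 with 1 replicate left out. The share of higher calls in the difference from the parental response was 73.4%, 83.5% with RLE scaling, 92.3% with library size, 50.4% with voom, 48.8% without a filter and 46.1% without shallow libraries. The median of all genes in that difference was 0.01, and 0.17 with library size. The causes were not tested.

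Replicate numbers did not pair the samples (same-number correlations -0.32, -0.43 and -0.01), and the replicate block called 0 genes in LB2 at 96 h, where edgeR gave 1045 an unadjusted p under 0.05. With the block, edgeR called 0 genes for the difference from the parental response, with 1575 at an unadjusted p under 0.05, and 1 for that from LB1. DESeq2 was run without the block. Of 114 named called genes the compared groups alone kept 27, and none reversed in any setting. Of the 762 calls 49 were kept in all alternatives but the block.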

Other observations

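Small nuclear RNA genes were looked at as a family after RNVU1-3, RNVU1-22 and RNVU1-25 had been named. Of 18 tested variant U1 genes (RNVU1), 4 were lower at 96 h in LB2, none was higher, 17 of the 18 had a negative fold change, and the median log2 fold change was -0.69. In the parental line the median was 0.09 and none was called. The 84 other spliceosomal small nuclear RNA genes tested had a median of -0.21 with 1 lower. These genes are near-identical copies, so reads may be split between them.

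Genes of the imprinted region of 11p15 around H19 were listed after H19 had been named. IGF2, the growth factor next to it, stood at 37.7, 8.78, 9.2 and 11.2 CPM at 0 h and 37.9, 35.9 and 32.6 CPM at 96 h (log2 fold change 1.37, edgeR adjusted p 0.00317), and its groups overlapped through replicate 1 at 0 h. KCNQ1, a potassium channel, rose by 1.90 (edgeR adjusted p 0.000315), from at most 3.13 CPM to at least 6.7 CPM. The noncoding gene KCNQ1OT1 lies within the span of KCNQ1 and was more abundant, at 41.6 to 104 CPM across the 7 libraries. Its log2 fold change was 0.57 (edgeR adjusted p 0.124). The strand setting is not given, so reads of KCNQ1 and KCNQ1OT1 may be mixed. CDKN1C, SLC22A18 and PHLDA2, on the far side of the region, had log2 fold changes of -0.93, 0.055 and -0.23 (edgeR adjusted p 0.149, 0.958 and 0.8). In the parental line H19, IGF2 and KCNQ1 had log2 fold changes of 1.99, 0.94 and 0.57 (edgeR adjusted p 3.04e-06, 0.0186 and 0.222). In LB1 they were 1.41, 1.02 and 1.19 (edgeR adjusted p 0.006, 0.0363 and 0.0184), and CDKN1C was lower there, at -1.17 (edgeR adjusted p 0.0356).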
